A study of Mus musculus with 6 samples.

Results

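The transcripts described here encode a core of the transforming growth factor beta (TGF-beta) pathway: the ligand Tgfb1, the receptors Tgfbr1 and Tgfbr2, the SMAD proteins Smad2, Smad3, Smad4 and Smad7, and the repressors Ski, Skil and Tgif1. They were taken from the gene count table by symbol, a rule that uses no measured value, although the set was chosen with earlier results of these data known. All 10 were found, 1 row each, among 54532 genes. All 10 passed the filter on low counts, as did 14530 genes in all. The samples were CD4+ T cells from spleens of C57BL/6 mice, and every culture was held for 72 h in conditions that drive T helper 1 (Th1) differentiation. In 3 cultures idelalisib was present, a drug that blocks the delta form of phosphoinositide 3-kinase (PI3K), and the other 3 were controls without it. The sources used here state neither the dose of idelalisib nor whether control cultures received its solvent. The sample titles mark the 3 libraries of each group as biological replicates. Nothing in the labels says that the cultures came from separate mice. The p-values thus reflect only how far these cultures differ, and part of that spread may be technical.

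TGF-beta is made as a latent precursor and, once freed, binds the type II receptor, which phosphorylates the type I receptor. The type I receptor then phosphorylates the receptor-regulated SMADs, which enter the nucleus with the common partner SMAD4 and switch genes on or off together with other factors. SKI, its relative SnoN (the product of Skil) and TGIF1 bind SMAD complexes and recruit repressors, and SMAD7 blocks the receptor. In T cells the pathway is known for restraining proliferation and Th1 effector differentiation and for its part in regulatory and interleukin-17-producing T cells.

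Total counts ranged from 13372318 to 16035945 in the idelalisib libraries and from 14879325 to 16770452 in the control libraries. The members had between 200 and 3611 reads in a library. Values are in CPM, the read count of a gene as a share of its library's reads on a per-million scale, adjusted with trimmed mean of M-values (TMM) factors. The marker genes of CD4+ T cells were present in all libraries, with summed levels of 3320 to 3637 CPM with idelalisib and 3550 to 3631 CPM in controls. Of 14530 genes tested, 44.6% had an adjusted p below 0.05 in edgeR's quasi-likelihood test and were called, 22.2% higher and 22.4% lower with idelalisib. In 54.6% of genes the libraries of the 2 groups did not overlap. On the second principal component idelalisib replicate 2 lay away from its group, a component that held 11.8% of the variance.

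With idelalisib 3 of the members were called lower and 2 were called higher. Tgif1, Skil and Smad4 fell, Tgfbr1 rose, and Tgfb1 rose by a small margin that depended on the libraries included. Tgfbr2, Smad2, Smad3, Smad7 and Ski did not pass the test. The share of members called, 5 of 10 or 50%, lies near the 44.6% of all genes, so the count does not set these genes apart. The groups did not overlap for 5 members (Tgfbr1, Smad4, Ski, Skil and Tgif1), against 54.6% of all genes tested. The median log2 fold change of the 10 members was -0.09, beside 0.01 for all genes tested.

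**Figure D1:**
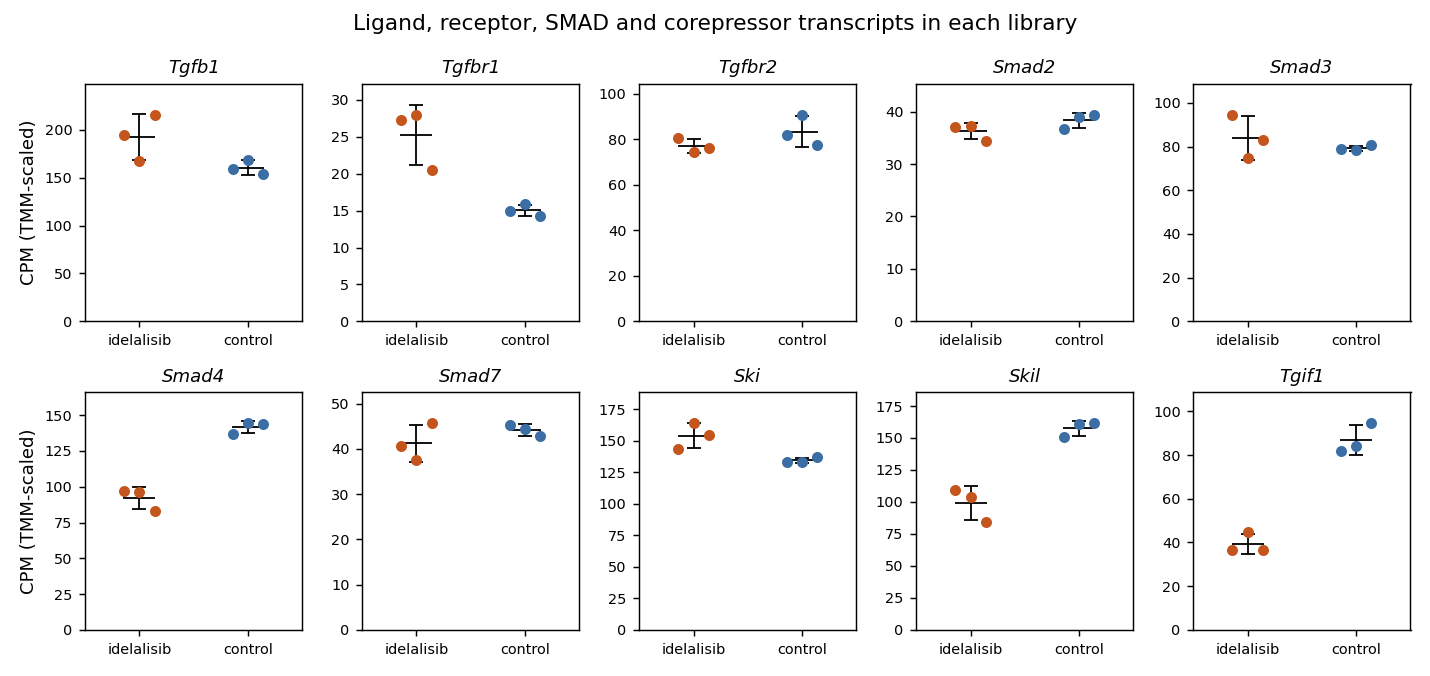
Level of each of the 10 transcripts (vertical axes, TMM-scaled CPM, each starting at 0) in the 3 idelalisib and the 3 control libraries; points are libraries from replicate 1 on the left to replicate 3 on the right, and the bar and whiskers are mean and SD. The idelalisib libraries lie below all controls for Smad4, Skil and Tgif1 and above all controls for Tgfbr1 and Ski, and the groups overlap for the other 5.

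The ligand gene Tgfb1 (ENSMUSG00000002603, mm10 chromosome 7, 25687002 to 25705077, plus strand) encodes the TGF-beta form that lymphocytes chiefly make. It was at 194.6, 167.8 and 215.7 CPM in idelalisib replicates 1 to 3, against 159.1, 168.7 and 153.8 CPM in control replicates 1 to 3. The groups overlapped, since idelalisib replicate 2 lay just under control replicate 2, and the other idelalisib libraries lay above all controls. The log2 fold change was 0.26 (SE 0.09, 95% interval 0.06 to 0.46, edgeR adjusted p = 0.0336). This call held in 1 of the 6 fits that left out 1 library, the one without idelalisib replicate 2 (log2 fold change 0.36). It was lost without idelalisib replicate 1 or 3 or any control library, with adjusted p up to 0.134.

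Platelets also carry Tgfb1 transcripts, and genes that mark platelets and their precursors moved with the groups. Of 7 such markers 2 were tested and both rose, the chemokine gene Pf4 to 2.17 ± 1.33 CPM with idelalisib, against 0.322 ± 0.255 CPM in controls (SD, n = 3), and the integrin gene Itga2b to 9.55 ± 2.28 against 5.14 ± 0.317 CPM. The summed level of the 7 markers was 9.41 to 17.9 CPM with idelalisib and 5.38 to 6.61 CPM in controls, and Gp1bb was at 0 in every library. Of 14 B cell markers 10 were tested and 6 rose, with a sum of 78.5 to 88.9 CPM with idelalisib and 67.3 to 70.1 CPM in controls. Of 14 myeloid and dendritic cell markers 3 were tested and 1 fell, with a sum of 21.1 to 22.6 CPM with idelalisib and 30.03 to 30.67 CPM in controls. Of 9 CD8 and natural killer cell markers 5 were tested and 3 rose (30.1 to 36.3 CPM with idelalisib, 18.8 to 26.2 CPM in controls), and of 10 stromal and endothelial markers 4 were tested and 1 rose (37.7 to 42.6 CPM with idelalisib, 40.1 to 43.6 CPM in controls). Beside these counts of markers, 44.6% of all genes tested were called. The part of these cell types in the values of Tgfb1 or of any other gene was not tested. In such bulk samples fewer cells of a type and less RNA per cell cannot be told apart.

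The type I receptor gene Tgfbr1 (ENSMUSG00000007613, mm10 chromosome 4, 47353222 to 47414931, plus strand) encodes the kinase that phosphorylates SMAD2 and SMAD3. It was at 27.3, 27.97 and 20.5 CPM in idelalisib replicates 1 to 3, against 14.95, 15.9 and 14.3 CPM in control replicates 1 to 3. All idelalisib libraries lay above all controls, with idelalisib replicate 3 the lowest of its group. Tgfbr1 rose 1.68-fold, a log2 fold change of 0.75 (SE 0.14, 95% interval 0.45 to 1.04, edgeR adjusted p = 0.00057), which 78.5% of tested genes did not reach in either direction. It was called in all 16 alternatives, at log2 fold changes from 0.67 to 0.90.

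The type II receptor gene Tgfbr2 (ENSMUSG00000032440, mm10 chromosome 9, 116084293 to 116175360, minus strand) encodes the chain that binds the ligand first. It was at 80.5, 74.3 and 76.3 CPM in the idelalisib libraries, against 81.7, 90.7 and 77.3 CPM in the control libraries. The groups overlapped, and the difference did not pass the test (log2 fold change -0.11, 95% interval -0.30 to 0.08, edgeR adjusted p = 0.318). The receptor chains thus had unlike values under idelalisib, and the ratio of Tgfbr1 to Tgfbr2 per kilobase of gene length compares them within a library. It was 0.424, 0.471 and 0.337 in the idelalisib libraries, against 0.229, 0.219 and 0.232 in the control libraries. Every idelalisib ratio exceeded every control ratio, and the change was 1.80-fold (exact two-sided permutation p = 0.10, 0.167 adjusted over 5 ratios). With 3 libraries a group, 0.10 is the smallest p this test can give.

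The sequence upstream of the start site is shown for these receptors and for Tgif1, the member with the largest fall, so that a receptor gene that was called can be set beside one that was not. Promoter entries of RefSeq (GRCm38.p6, the assembly that mm10 names) were used for 6 members, Tgfb1, Tgfbr1, Tgfbr2, Smad3, Ski and Tgif1. Windows of Smad2, Smad4, Smad7 and Skil were not examined, so the motif counts below say nothing about those members. Each run is the 250 bases before the RefSeq start site, 5′ to 3′ on the gene's strand, with capitals for a SMAD box (CAGAC, or GTCTG on the other strand).
Tgfbr1, chr4:47352972-47353221, plus strand: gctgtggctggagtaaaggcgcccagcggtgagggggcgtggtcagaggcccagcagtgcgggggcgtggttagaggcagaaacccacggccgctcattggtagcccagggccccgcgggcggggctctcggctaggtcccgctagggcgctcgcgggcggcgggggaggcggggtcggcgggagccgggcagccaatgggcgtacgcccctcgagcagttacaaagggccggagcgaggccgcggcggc
Tgfbr2, chr9:116175364-116175613, minus strand: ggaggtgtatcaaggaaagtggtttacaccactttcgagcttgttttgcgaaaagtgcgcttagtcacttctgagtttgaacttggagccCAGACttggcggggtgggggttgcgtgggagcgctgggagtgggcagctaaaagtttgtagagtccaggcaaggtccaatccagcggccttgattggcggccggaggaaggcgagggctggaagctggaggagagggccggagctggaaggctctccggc
Tgif1, chr17:70853533-70853782, minus strand: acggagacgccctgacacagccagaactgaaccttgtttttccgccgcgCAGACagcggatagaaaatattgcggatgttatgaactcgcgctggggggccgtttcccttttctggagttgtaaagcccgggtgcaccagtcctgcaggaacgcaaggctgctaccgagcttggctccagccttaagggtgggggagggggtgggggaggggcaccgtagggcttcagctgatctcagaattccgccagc
The Tgfbr2 and Tgif1 windows held 1 SMAD box each, and the windows of Tgfbr1, Tgfb1, Smad3 and Ski held none, so 2 of the 6 windows had one. Of 32851 promoter windows of the same length, 42.2% held at least 1 such box. The palindrome GTCTAGAC, a strong SMAD site present in 0.167% of windows, and TGTTTAC (or GTAAACA on the other strand), the core bound by FOXO factors, present in 3.17%, were in none of the 6 windows. The windows differed in base composition, with 74.8% G and C for Tgfbr1, 58.4% for Tgfbr2 and 59.6% for Tgif1. None of the 3 motifs contains another, and these are matches of letters alone that show no binding.

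The receptor-regulated SMAD genes stayed near control levels. Smad2 (ENSMUSG00000024563, mm10 chromosome 18, 76241580 to 76305731) was at 37.0, 37.2 and 34.5 CPM in the idelalisib libraries, against 36.7, 38.9 and 39.4 CPM in the control libraries. Smad3 (ENSMUSG00000032402, mm10 chromosome 9, 63646767 to 63757994) was at 94.5, 74.7 and 82.8 CPM in the idelalisib libraries, against 78.8, 78.5 and 80.6 CPM in the control libraries. The groups overlapped for both genes, and the idelalisib libraries of Smad3 were spread on either side of the tightly grouped controls. Neither passed the test, with log2 fold changes of -0.08 for Smad2 (95% interval -0.28 to 0.12, edgeR adjusted p = 0.496) and 0.08 for Smad3 (95% interval -0.12 to 0.28, adjusted p = 0.490). The ratio of Smad3 to Smad2 per kilobase was 1.64, 1.28 and 1.54 with idelalisib, against 1.37, 1.29 and 1.31 in controls, and the groups overlapped (exact permutation p = 0.40, 0.40 adjusted over 5 ratios).

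Smad4 (ENSMUSG00000024515, mm10 chromosome 18, 73639009 to 73703780, minus strand), which encodes the partner shared by the TGF-beta and bone morphogenetic protein (BMP) branches, fell. It was at 96.8, 96.4 and 83.0 CPM in idelalisib replicates 1 to 3, against 136.6, 144.3 and 144.1 CPM in control replicates 1 to 3. All idelalisib libraries lay below all controls. The log2 fold change was -0.62 (SE 0.09, 95% interval -0.81 to -0.44, edgeR adjusted p = 5.98e-05), so the level was 1.54-fold lower with idelalisib. It was called in all 16 alternatives, at -0.65 to -0.47. Set against its partners, the ratio of Smad4 to the sum of Smad2 and Smad3 per kilobase was 0.949, 1.08 and 0.906 in the idelalisib libraries, against 1.498, 1.548 and 1.514 in the control libraries, with no overlap (exact permutation p = 0.10, 0.167 adjusted over 5 ratios). This ratio was chosen after the values were seen.

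Smad7 (ENSMUSG00000025880, mm10 chromosome 18, 75367529 to 75395935, plus strand), the inhibitory SMAD that TGF-beta itself induces, did not pass the test. It was at 40.6, 37.5 and 45.6 CPM in the idelalisib libraries, against 45.4, 44.4 and 42.7 CPM in the control libraries, and the groups overlapped. Its log2 fold change was -0.10 (95% interval -0.31 to 0.11, edgeR adjusted p = 0.429). The ratio of Smad7 to Smad3 per kilobase was 0.526, 0.615 and 0.675 with idelalisib, against 0.706, 0.693 and 0.650 in controls (exact permutation p = 0.20, 0.25 adjusted over 5 ratios).

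The related corepressor genes Ski and Skil had opposite signs. Ski (ENSMUSG00000029050, mm10 chromosome 4, 155154075 to 155222592, minus strand) was at 143.7, 163.9 and 154.6 CPM in idelalisib replicates 1 to 3, against 133.3, 133.4 and 137.1 CPM in control replicates 1 to 3. The groups did not overlap, but the log2 fold change of 0.20 (SE 0.08, 95% interval 0.03 to 0.37) missed the threshold over all genes (edgeR adjusted p = 0.0590). It passed without idelalisib replicate 1 (log2 fold change 0.26, adjusted p = 0.0372) or 3 (0.20, 0.0473), with upper-quartile scaling (0.23, 0.0281) and scaled by library size alone (0.35, 0.00244).

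Skil (ENSMUSG00000027660, mm10 chromosome 3, 31095058 to 31122577, plus strand) encodes SnoN, whose transcript is a known TGF-beta target. It was at 109.2, 103.9 and 84.6 CPM in idelalisib replicates 1 to 3, against 150.5, 160.6 and 161.5 CPM in control replicates 1 to 3. All idelalisib libraries lay below all controls, with idelalisib replicate 3 the lowest. Skil fell by 0.67 on the log2 scale (SE 0.10, 95% interval -0.87 to -0.46, edgeR adjusted p = 9.22e-05) and was called in all 16 alternatives, at -0.73 to -0.51. The ratio of Skil to Ski per kilobase was 0.436, 0.364 and 0.314 in the idelalisib libraries, against 0.648, 0.691 and 0.676 in the control libraries. Every idelalisib ratio was below every control ratio, a difference of -0.87 on the log2 scale (exact permutation p = 0.10, 0.167 adjusted over 5 ratios).

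**Figure D2:**
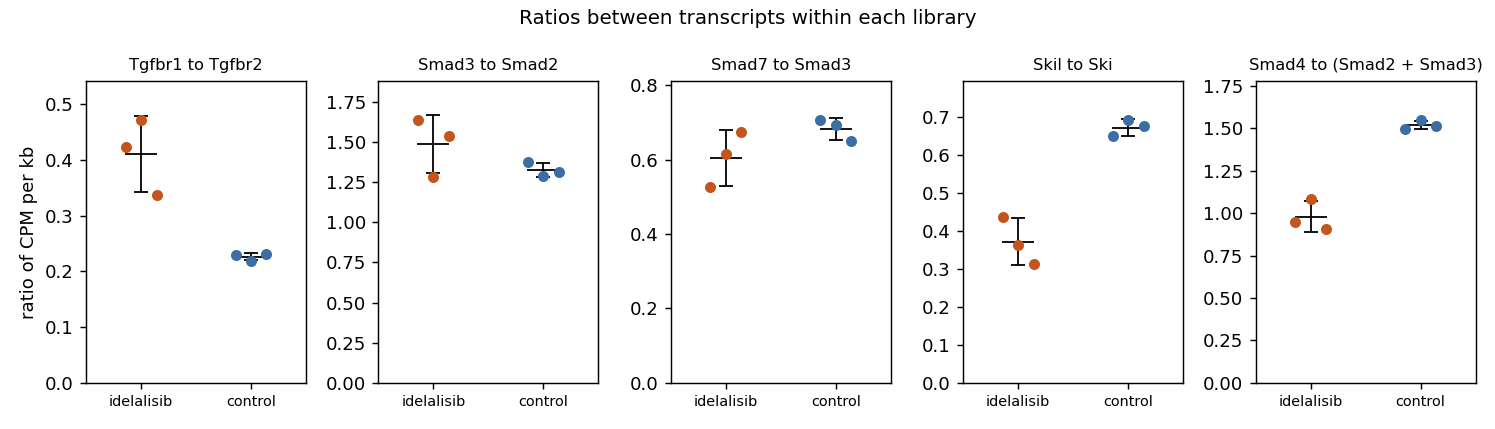
Ratios of transcript levels per kilobase within each library (vertical axes, starting at 0) for 5 pairs of members or sums of members; points are the 3 idelalisib and the 3 control libraries, and the bar and whiskers are mean and SD. The groups are apart for Tgfbr1 to Tgfbr2, Skil to Ski and Smad4 to the sum of Smad2 and Smad3, and overlap for Smad3 to Smad2 and Smad7 to Smad3.

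Tgif1 (ENSMUSG00000047407, mm10 chromosome 17, 70844205 to 70853546, minus strand), a homeobox gene whose product represses SMAD and retinoid targets, had the largest fall among the 10 members. It was at 36.6, 44.7 and 36.8 CPM in idelalisib replicates 1 to 3, against 81.7, 84.0 and 94.6 CPM in control replicates 1 to 3. The groups were far apart, with idelalisib replicate 2 the highest of its group. The level was 2.20-fold lower with idelalisib, a log2 fold change of -1.14 (SE 0.10, 95% interval -1.36 to -0.92, edgeR adjusted p = 1.35e-06). Of all tested genes 90.0% changed by less in either direction, and Tgif1 was called in all 16 alternatives, at -1.23 to -0.98.

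The protein-coding genes whose values over the 6 libraries lay closest to those of Tgif1 were Chst11, Rab11fip1, Pnrc1, Gad1 and Pde8a. Likeness was the Euclidean distance between log2 CPM values, each centred on its control mean, and ran from 0.106 for Chst11, a chondroitin sulfotransferase gene, to 0.180 for Pde8a, a cyclic nucleotide phosphodiesterase gene. Their log2 fold changes lay between -1.26 and -1.07. Chst11 was at 23.8 CPM with idelalisib and 52.3 CPM in controls. Gad1, a glutamate decarboxylase gene, averaged only 0.545 CPM with idelalisib and 1.31 CPM in controls, so its likeness rests on few reads.

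**Figure D3:**
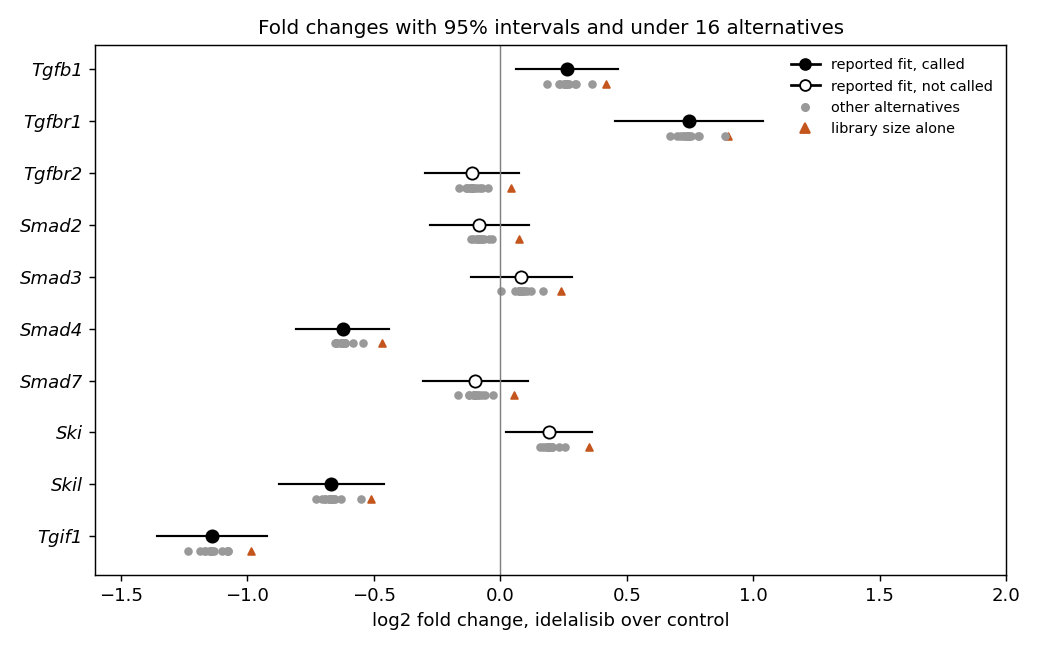
Log2 fold change of each member, idelalisib over control (horizontal axis), with its 95% interval as a line; filled circles were called at an adjusted p under 0.05 and open circles were not. Small marks below each line are the 16 alternatives, with a triangle for scaling by library size alone, which lies to the right of the reported value in all 10 members.

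Scaling shifted all members by a similar amount. With library size alone all genes together had a median of 0.16 on the log2 scale, and the members' values shifted with it. Tgfbr2, Smad2 and Smad7 then had log2 fold changes of 0.04, 0.07 and 0.06, and Smad3 passed the test at 0.24 (edgeR adjusted p = 0.0485). A change of scaling moves every gene by nearly the same amount, so values relative to the median must return close to the TMM values. They therefore do not show which scaling is right. These values were -1.15 for Tgif1, -0.68 for Skil, -0.63 for Smad4, 0.74 for Tgfbr1, 0.25 for Tgfb1, 0.19 for Ski and 0.08 for Smad3.

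The order of the members by level per kilobase differed between the groups. With idelalisib Tgfb1 was highest at 38.2 ± 4.76 CPM per kilobase (SD, n = 3), followed by Ski at 27.7 ± 1.82 and Smad4 at 24.8 ± 2.12, whose libraries overlapped. Smad3 came next at 15.2 ± 1.80 CPM per kilobase. Skil, Smad2, Tgfbr2 and Smad7 lay between 9.12 and 10.2 CPM per kilobase on average, and each overlapped its neighbour in the order. Tgif1, at 7.00 ± 0.827, and Tgfbr1, at 3.87 ± 0.627 CPM per kilobase, were the lowest. In controls Smad4 was highest at 38.2 ± 1.19 CPM per kilobase, above Tgfb1 at 31.8 ± 1.496 and Ski at 24.2 ± 0.393, without overlap between neighbours. Skil at 16.3 ± 0.626, Tgif1 at 15.4 ± 1.22 and Smad3 at 14.3 ± 0.211 followed, with overlap between neighbours, then Smad2, Tgfbr2 and Smad7 between 9.77 and 10.8, and Tgfbr1 was again lowest at 2.30 ± 0.120 CPM per kilobase. The gene lengths are those in the deposited table, and the transcripts in use may be shorter or longer. For Smad2 the deposited length is 3549 bases, while its GENCODE M21 transcripts hold 8864 distinct 50-base words. Its level per kilobase and the ratios that use it rest on the deposited length.

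The wider machinery of the pathway was described with 8 lists holding 101 genes, of which 86 were tested. Of these, 15 were higher and 25 lower with idelalisib, so 46.5% were called, near the 44.6% of all genes. Their median log2 fold change was -0.13, against 0.01 for all genes. Scaled by library size alone 26 were higher and 16 lower, so the balance of directions in this set depends on the scaling.

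**Figure D4:**
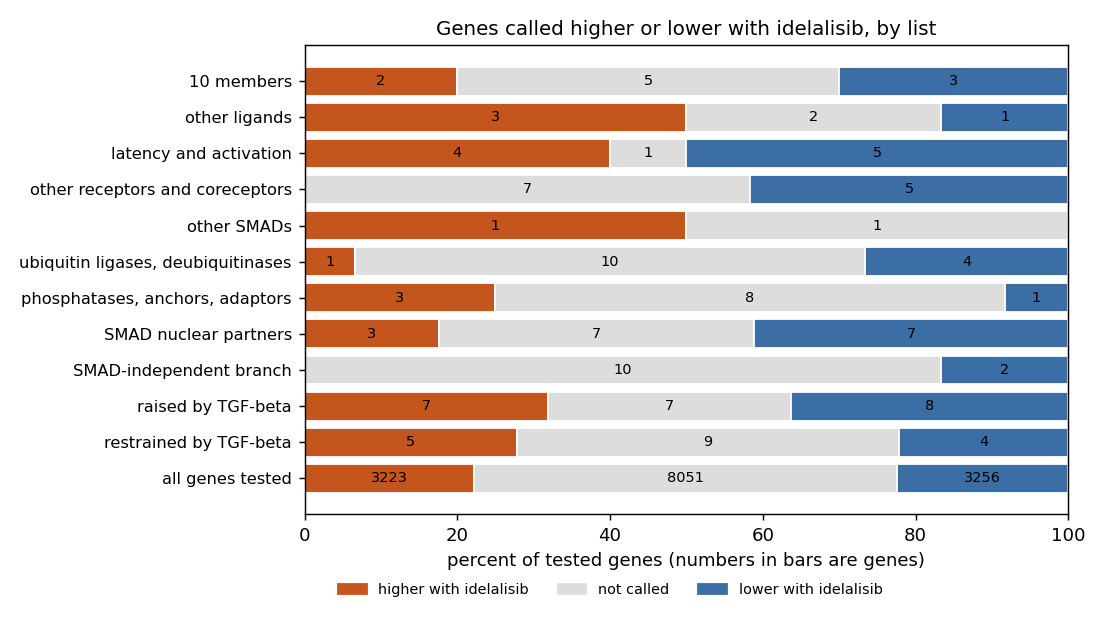
Percent of the tested genes of each list that were called higher (left), not called (middle) or called lower (right) with idelalisib, with the number of genes in each bar; the last bar holds all 14530 genes tested. All 5 called genes of the other receptors and coreceptors lay on the lower side, while the latency and activation list had 4 higher and 5 lower of 10.

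Among 12 other ligand genes of the TGF-beta, activin and BMP families 6 were tested, and 3 were higher and 1 lower. The share called was 66.7%, beside 44.6% of all genes. Inhba, which encodes the activin beta A subunit, fell to 53.4, 44.7 and 39.1 CPM in the idelalisib libraries, against 97.7, 82.0 and 95.9 CPM in the control libraries. The groups did not overlap (log2 fold change -1.01, SE 0.11, at an adjusted p = 1.06e-05 in edgeR). Bmp2, a BMP ligand gene, rose on few reads, with 37, 34 and 32 counts in the idelalisib libraries against 4, 4 and 6 in the control libraries. Gdf11 rose by 0.45 on the log2 scale (edgeR adjusted p = 0.00857), to 21.2 ± 1.82 CPM with idelalisib against 15.4 ± 1.08 CPM in controls. Tgfb3 was at 47.0, 21.3 and 44.5 CPM in the idelalisib libraries against 64.6, 54.8 and 53.7 CPM in the control libraries and did not pass (edgeR adjusted p = 0.164), and without idelalisib replicate 2 the list had 2 lower genes.

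Genes that hold TGF-beta latent or release it moved in both directions, with 4 higher and 5 lower of 10 tested. Of those tested, 90% were called, beside 44.6% of all genes. Lrrc32, whose product GARP tethers latent TGF-beta to the surface of regulatory T cells and platelets, rose to 57.3, 49.8 and 61.3 CPM in the idelalisib libraries, against 22.1, 24.2 and 21.9 CPM in the control libraries. The groups were well apart (log2 fold change 1.31, SE 0.10, at an adjusted p = 4.95e-07 in edgeR). Fbn1, a microfibril gene, and Thbs1, which encodes the activator thrombospondin 1 and is abundant in platelets, rose on few reads in the same way, with 51, 87 and 55 counts of Fbn1 with idelalisib against 4, 8 and 5 in controls, and 22, 47 and 23 counts of Thbs1 with idelalisib against 5, 5 and 11 in controls. In both genes idelalisib replicate 2 was the highest library. The platelet marker Pf4 had 15, 51 and 32 counts in the idelalisib libraries against 1, 5 and 8 in the control libraries. The growth factor gene Il2 was also highest in idelalisib replicate 2, while Lrrc32 was lowest of its group there. The part of platelets in the values of Fbn1, Thbs1 and Lrrc32 was not tested. Of the exon bases of Fbn1, 20.1% overlap the opposite-strand gene Gm9913. Itgav, the alpha chain of TGF-beta-activating integrins, chosen after its values were seen, fell to 122.6, 123.3 and 102.8 CPM with idelalisib, against 234.4, 238.3 and 232.5 CPM in controls (log2 fold change -1.02, SE 0.09, at an adjusted p = 8.54e-07 in edgeR). The other lower genes, also chosen after their values were seen, were Ltbp2, Ltbp3, Itgb8 and Furin, and the lower count was 3 without idelalisib replicate 1 or control replicate 1 or 2.

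None of the 12 tested genes for other receptors and coreceptors was called higher and 5 were called lower. The share called was 41.7%, near the 44.6% of all genes. Acvrl1, which encodes the type I receptor ALK1, fell to 19.0, 10.3 and 17.6 CPM in the idelalisib libraries, against 57.6, 48.9 and 45.2 CPM in the control libraries (log2 fold change -1.69, SE 0.19, at an adjusted p = 7.25e-05 in edgeR). Bmpr1a, a BMP type I receptor gene, fell to 28.05 ± 2.438 CPM with idelalisib, against 42.8 ± 1.69 CPM in controls, and Eng, the coreceptor endoglin, fell to 4.34 ± 0.508 against 7.60 ± 1.71 CPM. The remaining 2, named after inspection of their values, were the coreceptor gene Tgfbr3 at a log2 fold change of -0.52 and the type I receptor gene Acvr1 at -0.44. For the higher direction, the number of genes in edgeR was 1 at an unadjusted p under 0.05, DESeq2 called 0 and limma-voom 0, while edgeR called 2 without idelalisib replicate 3, 2 with library size alone and 1 with upper-quartile scaling.

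Of the other SMAD genes Smad1, a BMP-branch SMAD, rose to 23.1 ± 1.97 CPM with idelalisib, against 16.04 ± 0.919 CPM in controls (log2 fold change 0.52, SE 0.12, at an adjusted p = 0.00287 in edgeR). Smad5 was at 43.9 ± 9.07 CPM with idelalisib and 44.1 ± 5.59 CPM in controls, and Smad6 and Smad9 had too few reads to be tested. Among 15 ubiquitin ligase and deubiquitinase genes 4 were lower and 1 higher, so 33.3% were called, beside 44.6% of all genes. Smurf2 and Smurf1, ligases that SMAD7 brings to the receptor, fell to 52.3 ± 3.94 against 74.09 ± 3.9998 CPM and to 46.9 ± 6.43 against 61.4 ± 2.37 CPM, idelalisib against control. Nedd4l, a ligase for phosphorylated SMADs, fell by 0.36 on the log2 scale (edgeR adjusted p = 0.0261), a call lost without idelalisib replicate 1 or control replicate 1 or 3 (adjusted p up to 0.137). Without any 1 of these 3 libraries the list had 2 lower and no higher gene, and without idelalisib replicate 3 it had 3 higher genes.

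In the list of SMAD phosphatases, anchors and adaptors 3 of 12 genes were higher and 1 lower. The share called was 33.3%, beside 44.6% of all genes. Ctdsp1, a small C-terminal domain phosphatase that acts on the SMAD linker, rose 1.85-fold to 54.5 ± 6.42 CPM with idelalisib, against 29.4 ± 1.77 CPM in controls (log2 fold change 0.89, SE 0.11, at an adjusted p = 1.63e-05 in edgeR). Tgfbrap1, a receptor-associated protein gene, rose by 0.35 on the log2 scale. Ppp1r15a, a phosphatase-targeting subunit gene induced by stress, fell to 57.0 ± 3.67 CPM with idelalisib, against 99.5 ± 6.67 CPM in controls. The lower count was 3 without idelalisib replicate 2. Pmepa1, a feedback inhibitor and a common TGF-beta target, was at 27.6 ± 1.43 CPM with idelalisib and 26.9 ± 2.00 CPM in controls (edgeR adjusted p = 0.797).

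Of 17 tested nuclear partners of SMADs, 7 were lower, 3 higher and 7 not called, so 58.8% were called, beside 44.6% of all genes, and 5 were higher when scaled by library size alone. Zeb2, a SMAD-binding zinc finger repressor, fell to 14.9, 22.9 and 14.4 CPM in the idelalisib libraries, against 40.9, 37.7 and 43.0 CPM in the control libraries (log2 fold change -1.22, SE 0.16, at an adjusted p = 3.72e-05 in edgeR). Rbl1, which encodes the pocket protein p107, rose to 165.3 ± 16.9 CPM with idelalisib, against 98.9 ± 3.70 CPM in controls. Sin3a, a scaffold of histone deacetylase complexes, rose to 126.6 ± 7.18 CPM with idelalisib, against 76.2 ± 1.67 CPM in controls. Runx3, a SMAD partner in T cells, chosen after its values were seen, was 1.64-fold lower, at 331.6, 275.9 and 326.6 CPM with idelalisib and 526.6, 507.2 and 497.7 CPM in controls. In the SMAD-independent branch 16.7% of genes were called, beside 44.6% of all genes. Of its 12 genes edgeR called 2 lower and 0 higher (1 higher at an unadjusted p under 0.05, 0 called higher by DESeq2 and 0 by limma-voom). They were Map3k7, the kinase TAK1, and its partner Tab1, with changes of -0.40 and -0.43 on the log2 scale (adjusted p = 0.00886 and 0.0151 in edgeR). Map3k7 lost its call without idelalisib replicate 1 or control replicate 3 and Tab1 without idelalisib replicate 1 or control replicate 1 or 2. The lower count of that branch was 0 without idelalisib replicate 1, 1 without any control library and 4 without idelalisib replicate 2 or 3, while 2 genes were called higher without idelalisib replicate 2 and 1 without idelalisib replicate 3.

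Transcripts that TGF-beta is known to raise, in T cells or elsewhere, did not move in 1 direction. Of 22 tested, 7 were higher, 8 lower and 7 not called, so 68.2% were called, beside 44.6% of all genes, with a median log2 fold change of -0.21, and many of them have other regulators. Gpr83, a receptor gene of regulatory T cells, rose to 10.9 ± 2.07 CPM with idelalisib, against 2.95 ± 0.316 CPM in controls. Ldlrad4, a membrane protein gene that dampens SMAD activation, fell to 6.44 ± 1.66 CPM with idelalisib, against 22.1 ± 2.34 CPM in controls. In the GENCODE M21 annotation 2798 of its 5371 exon bases (52.1%) overlap the opposite-strand gene Fam210a. The deposited length of Ldlrad4 is only 2493 bases, so the share of overlap in the counted exons is not known. Itgae, the integrin chain CD103 and a TGF-beta target of T cells, stayed low, at 1.87 ± 0.394 CPM with idelalisib and 1.77 ± 0.393 CPM in controls (edgeR adjusted p = 0.851).

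Of 18 tested transcripts that TGF-beta is known to restrain in T cells, 5 were higher, 4 lower and 9 not called, so 50% were called, near the 44.6% of all genes (median log2 fold change 0.09, 9 higher when scaled by library size alone). Klf2, a quiescence and trafficking factor gene, rose to 15.7 ± 4.04 CPM with idelalisib, against 3.54 ± 0.677 CPM in controls (log2 fold change 2.15, SE 0.22, at an adjusted p = 4.01e-06 in edgeR). Il2 and Fasl, the growth factor and the death ligand, had log2 fold changes of 3.00 and -2.20, and the value of Il2 was 2.37 without idelalisib replicate 2.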

How the data were processed

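RNA-seq read counts of 6 libraries, 3 from idelalisib and 3 from control cultures, were analysed, grouped by sample title, with every column matched by library name. Per the labels' protocols, poly(A) RNA was captured and reverse transcribed with random hexamers. The authors deposited raw read counts per gene. fastp, HISAT2 2.0.5 and featureCounts 1.5.0-p3 with build mm10 are named in the submitters' processing notes. The sources used here state no strand setting, no handling of reads with several placements and no annotation release, so reads of genes that overlap on opposite strands could be mixed. The gene length column was used as deposited.

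Genes were filtered with filterByExpr (minimum count 10, minimum total 15), scaled with TMM and compared in edgeR 4.0.16 under R 4.3.3 (quasi-likelihood F test, robust, group alone), with Benjamini-Hochberg adjustment over all 14530 genes. Each SE is the fold change divided by the root of its F statistic. The common biological coefficient of variation was 0.109. The 10 members and all lists were chosen with earlier results of these data known. Genes named from a list are the up to 3 called genes with the largest change that average at least 1 CPM, unless a sentence says otherwise, and Tgfb3, Smad5, Pmepa1, Itgae and the platelet markers were named after their values were seen. A further gene under this rule is not reported here. Alternatives were RLE, upper-quartile and library-size scaling, DESeq2 1.42.0, limma-voom (limma 3.58.1), minimum counts of 1 and 30, a replicate block, protein-coding genes alone, an adjusted p under 0.01 and each library left out. Libraries of a group were not duplicates (chi-square per degree of freedom 4.63 to 18.2). No exon of a member overlaps another gene in GENCODE M21, and at most 0.586% of a member's 50-base words occur in other genes. Gene coordinates in the deposited table were identical to M21 for 9 of the 10 members. The exons that were counted may therefore differ from those checked.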

Additional observations from a re-analysis of the deposited data

How the results depend on the processing

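Tgfbr1, Smad4, Skil and Tgif1 kept their direction and their call in all 16 alternatives. Scaled by library size alone, 4 members were called higher, the machinery lists had 26 higher and 16 lower genes, and all genes split into 4832 higher and 2219 lower, against 3223 and 3256 with TMM. Tgfbr2, Smad2 and Smad7 then changed sign, to log2 fold changes of 0.0438, 0.0736 and 0.0553, where the median of all genes was 0.16. Smurf1, Nedd4l, Map3k7 and Tab1 lost their calls there. At an adjusted p under 0.01, 1 member and 2138 genes in all were called higher. With 1 library left out, 1 to 2 members were called higher and 3 lower, 2472 to 3599 of all genes higher and 2617 to 3581 lower, and 13 to 21 machinery genes higher and 18 to 33 lower. With a replicate block, 1 member was called higher, since Tgfb1 had an edgeR adjusted p of 0.0644, while 2910 genes in all were higher and 3051 lower. Same-numbered libraries shared no deviations (correlations 0.08, -0.13 and -0.10), so the numbers were not taken as pairs. The number of libraries sets the smallest exact p for a ratio at 0.10.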
